A study of Mus musculus with 123 samples.

Results

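The cyclins and cyclin-dependent kinases described here are 10 genes of the 23337 in the count table: Ccnd1, Ccnd2, Ccnd3 and Cdk4 of G1, Ccne1, Ccne2 and Cdk2 of the passage from G1 to S, and Ccna2, Ccnb1 and Cdk1 of S phase and mitosis. They were chosen by name, and all 10 were in the table. They were measured by single-cell RNA sequencing in cells sorted from hearts of αMHC-GFP mice (strain label aMHC-GFP), from embryos (E9.5 and E12.5, named by embryonic day) and newborn mice (P1, postnatal day 1). The labels give no treatment, and every cell was selected for GFP driven by the αMHC (Myh6) promoter, so the cells do not stand for all cells of the heart. Hearts were digested with collagenase at E9.5 and E12.5 and with Liberase at P1, so the digestion and the age cannot be told apart at P1. Of 123 deposited cells, 112 had 2000 or more genes with a count and were analysed: all 42 of E9.5, all 29 of E12.5, and 41 of the 52 of P1. The labels name no animal, litter or chip, so each time point counts as 1 sample, the differences have no replicate check, and no p-value is given. Where 3 values stand in a row they follow age, with E9.5 first and P1 last.

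D-type cyclins are made in response to growth signals and bind Cdk4 or Cdk6, and these kinases start the phosphorylation of the retinoblastoma protein in G1. E-type cyclins then bind Cdk2 and carry the cell into S phase. Cyclin A2 acts with Cdk2 and Cdk1 through S phase and G2, and cyclin B1 with Cdk1 drives mitosis. In the mouse heart the muscle cells divide in the embryo and leave the cell cycle in the first days and weeks after birth. Transcripts of the S and M members are made mainly in cycling cells and are held low in G1 and in cells out of cycle, while D-type cyclins and Cdk4 are also transcribed outside S phase and mitosis.

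The cells differed in depth and in name. Median total counts per cell were 2476022, 493238 and 149078, and the cell titles start with C in 14 E9.5, 20 E12.5 and all P1 cells, with N530 in 28 E9.5 cells, with N523 in 8 E12.5 cells and with neither in 1 E12.5 cell. What these prefixes stand for is not given in the labels, and they are called naming sets here. The N530 and N523 cells were deeper, with medians of 3151946 and 4895288 counts against 415428 and 389394 in set C of the same ages, and they supply most of the counts that are pooled at E9.5 and E12.5. Of 8 cardiomyocyte markers (Tnnt2, Actc1, Myl7, Myl4, Myh6, Myh7, Ttn and Actn2), 4 or more reached 50 CPM (counts per 1000000) in 39 of 42, 29 of 29 and 40 of 41 cells. E9.5 cells 3, 5 and 8 and P1 cell 25 fell short of this (cells are numbered in the order of deposit). E9.5 cell 5 held 650 counts of 6 endothelial markers and P1 cell 25 held 1584, most of them of Emcn (1268) and Pecam1 (164), while it had 4 counts of Myh6 and 4 of Ttn. Endothelial markers had a count in 23 of 42, 2 of 29 and 3 of 41 cells, and their sum reached 50 CPM in 11, 0 and 1. Their part in the results was not tested, but the pooled values that the 4 cells moved most are also given without them.

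Coordinates are those of the GRCm38 build (GENCODE M21). The G1 genes are Ccnd1 at chr7:144929931-144939925, Ccnd2 at chr6:127125162-127152193, Ccnd3 at chr17:47505051-47599691 and Cdk4 at chr10:127063534-127067920. Ccne1 lies at chr7:38097984-38107534, Ccne2 at chr4:11191351-11204779 and Cdk2 at chr10:128697939-128705031. Ccna2 lies at chr3:36564865-36572150, Ccnb1 at chr13:100778650-100786570 and Cdk1 at chr10:69335146-69352938. The annotation also holds processed pseudogene copies of Ccnb1, and reads that fit the gene and a copy may have been split or dropped in counting, so the level of Ccnb1 is uncertain.

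RefSeq promoter windows (build GRCm38.p6) were at hand for 6 of the 10 genes, and the stretches of 3 of them are shown: the mitotic pair Cdk1 and Ccnb1, found in 2 and 1 of 41 P1 cells, and Cdk4, which of the 6 was found in the largest number of P1 cells (21). Each stretch runs 5′ to 3′ along the gene's strand and stops before the first annotated exon. In Cdk1 (chr10:69352939-69353162, minus strand) and Ccnb1 (chr13:100786571-100786736, minus strand) capitals mark CCAAT and also TTTGAA (the letters of the cell cycle genes homology region, CHR) and any of the E2F words (TTTCCCGC, TTTGGCGC, TTTGCCGC, TTTCGCGC), on either strand. In Cdk4 (chr10:127063285-127063533, plus strand) they mark the E-box CACGTG.
Cdk1: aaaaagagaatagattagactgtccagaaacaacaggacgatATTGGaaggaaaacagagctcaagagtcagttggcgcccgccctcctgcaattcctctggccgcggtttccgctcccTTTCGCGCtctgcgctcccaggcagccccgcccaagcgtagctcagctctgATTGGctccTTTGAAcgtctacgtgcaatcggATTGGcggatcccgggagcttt
Ccnb1: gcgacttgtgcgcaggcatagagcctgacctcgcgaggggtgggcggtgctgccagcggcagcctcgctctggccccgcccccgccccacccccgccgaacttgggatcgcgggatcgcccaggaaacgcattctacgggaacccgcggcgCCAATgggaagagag
Cdk4: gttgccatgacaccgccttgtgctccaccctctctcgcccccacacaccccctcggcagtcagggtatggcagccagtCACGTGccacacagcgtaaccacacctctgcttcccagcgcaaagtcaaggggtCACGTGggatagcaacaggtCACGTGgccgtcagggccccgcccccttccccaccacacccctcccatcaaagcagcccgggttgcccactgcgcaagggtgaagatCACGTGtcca
Within the 250 bases before the RefSeq start, Cdk1 held CCAAT at 208, 80 and 48 bases before the start, TTTGAA at 71 and 15, and the E2F word at 131. Ccnb1 held CCAAT at 99 and 67 bases before its start and no TTTGAA or E2F word. Cdk4 held CACGTG at 172, 118, 98 and 11 bases before its start and none of the other words. Of all 32851 windows of this length, 33.8% held CCAAT, 16.0% TTTGAA, 6.02% CACGTG and 1.86% an E2F word, counted on both strands. Cdk2 had CCAAT at 45 and an E2F word at 140 bases, Ccne1 had none of the words, and of the windows of Ccnd3, which has 2, only that of the inner start held CCAAT, at 108 bases. A match is a description of letters and not a binding site.

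Ccnd2, Cdk4 and Ccnd3 of the G1 members were still found in many P1 cells. Ccnd2, which encodes cyclin D2, had a pooled level (summed counts over summed totals) of 1380, 900 and 209 CPM, with an exact Poisson 95% interval of 199 to 221 CPM for the last. The intervals of levels and of their ratios cover the counting error of reads only and leave out the spread between cells and animals. The reads carry no molecular identifiers, so amplified copies of a molecule were counted as separate. Ccnd2 had lowest, median and highest cell values of 0, 638 and 5177 CPM at E9.5 and 0, 375 and 4827 CPM at E12.5. At P1 they were 0, 36.3 and 2475 CPM. The ranges overlapped, and the P1 cells reached down to 0 more often, with 30 of 41 cells holding a count against 37 of 42 and 26 of 29. Among cells with a count the median was lower at each later age, at 1074, 458 and 84.8 CPM. The highest P1 value was that of P1 cell 25, the cell with endothelial markers, which alone held 509 of the 1428 Ccnd2 counts at P1, and without it the P1 level was 139 CPM. E12.5 cell 28 held 54.5% of the E12.5 counts, and without it that level was 456 CPM.

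Cdk4, the kinase partner of the D-type cyclins, was found in 40 of 42, 27 of 29 and 21 of 41 cells. Its cell values were 0, 346 and 2936 CPM (lowest, median, highest) in E9.5 cells, 0, 235 and 888 CPM in the E12.5 ones, and 0, 21.6 and 681 CPM after birth. At P1 the cells split into 20 with no count and 21 with at least 21.6 CPM, and the median of those with a count was 198 CPM, beside 250 CPM at E12.5 and 375 CPM at E9.5. Fewer P1 cells thus held a count, and those that did had a lower median. The pooled log2 ratio of P1 to E12.5 was -0.56 (95% interval -0.66 to -0.45), the nearest to 0 of the 10 genes, but this hung on the N523 cells: against them it was -0.28 and against the E12.5 cells of set C -1.51, where Ccnd3 (-1.29) and Ccnd2 (-1.41) were nearer to 0.

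Ccnd3, which encodes cyclin D3, was found in 30, 24 and 15 of the cells of the 3 ages. Its lowest, median and highest values were 0, 15.3 and 1362 CPM in E9.5 cells, 0, 28.1 and 447 CPM in the E12.5 ones, and 0, 0 and 199 CPM after birth. Cells with a count had medians of 36, 48.8 and 76.3 CPM, so that a P1 cell with Ccnd3 held no less of it than an embryonic one. This order depends on depth, since deep cells also register low values: after every cell was thinned to 100000 counts the medians were 140, 70 and 95 CPM.

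Ccnd1, which encodes cyclin D1, was the G1 member that was least found at P1, in 4 of 41 cells against 26 of 42 and 16 of 29. Its highest values were 641, 592 and 131 CPM and its medians 12.0, 2.66 and 0 CPM, and without the cells short of cardiomyocyte markers the highest E9.5 value was 584 CPM. Of the 37 Ccnd1 counts at P1, 27 were in P1 cell 25. Without that cell 10 counts in 3 of 40 cells remained, 8 of them in P1 cell 45, and the level dropped from 5.43 to 1.51 CPM. On the deposited TPM scale, which corrects for gene length, Ccnd1 stood at 1.27 TPM in these 40 cells and Ccnd2 at 41.97 TPM.

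The G1/S members were found in few P1 cells. Cdk2, the kinase of cyclin E, was found in 32 of 42, 23 of 29 and 4 of 41 cells, with medians of 6.81, 7.79 and 0 CPM and highest values of 442, 327 and 126 CPM. Its pooled E12.5 level of 50 CPM came to 86.9% from E12.5 cell 24, and without that cell the level was 7.58 CPM. Ccne1, which encodes cyclin E1, was found in 14, 10 and 1 cells, with medians of 0 at every age and highest values of 730, 150 and 54.8 CPM. Ccne2, which encodes cyclin E2, was found in 22 of 42 and 11 of 29 embryonic cells. Its highest values were 266 (207 without the cells short of cardiomyocyte markers) and 199 CPM. It had 0 counts among the 6819717 counts of P1, with an exact Poisson upper limit of 0.541 CPM. As a bound for ratios, 3 counts (0.440 CPM) were used. P1 cell 45 held all 4 counts of Ccne1, and P1 cell 35 held 21 of the 26 counts of Cdk2. No P1 cell held more than 1 of the 3 G1/S members.

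The S and M members were found in 4 P1 cells in all. Cdk1, the kinase of mitosis, was found in 24 of 42, 19 of 29 and 2 of 41 cells. Its lowest, median and highest values were 0, 0.49 and 2225 CPM in E9.5 cells, 0, 59.6 and 1598 CPM in the E12.5 ones, and 0, 0 and 532 CPM after birth. Ccnb1, which encodes cyclin B1, was found in 27, 14 and 1 cells, with medians of 9.33, 0 and 0 CPM and highest values of 5049, 1940 and 4.74 CPM. Ccna2, which encodes cyclin A2, was found in 24, 14 and 1 cells, with medians of 1.4, 0 and 0 CPM and highest values of 2972, 674 and 48.1 CPM. In the embryonic cells these genes ran from 0 to their highest values within an age, and the pooled levels rest on few cells. E9.5 cell 19 held 59.9% of the E9.5 counts of Ccna2, E9.5 cell 25 held 43.3% of those of Ccnb1, and E12.5 cell 24 held 38.5% of the E12.5 counts of Cdk1.

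**Figure D1:**
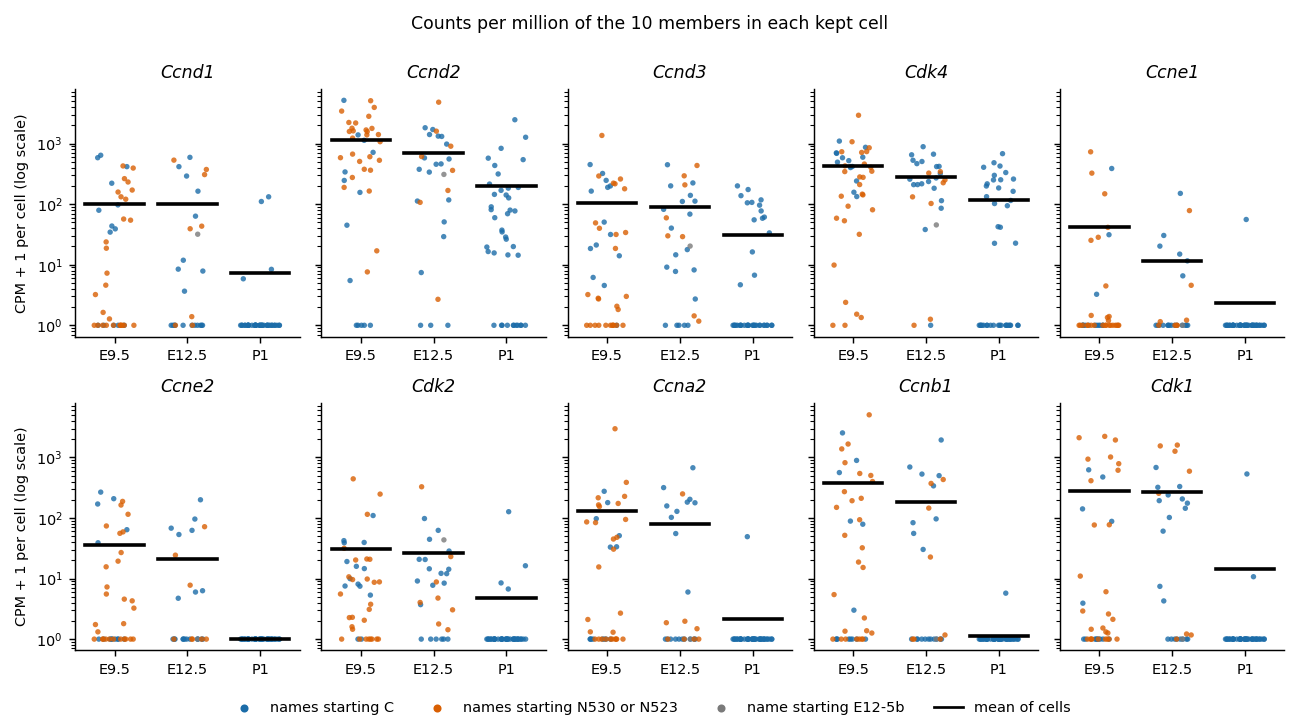
CPM plus 1 of each of the 10 genes (log axis) in each of the 112 kept cells by age, coloured by naming set, with the mean of the cells as a bar. Points at 1 have no count. Ccnd2 and Cdk4 keep many P1 cells above 0, while the P1 columns of Ccne1, Ccne2, Ccna2, Ccnb1 and Cdk1 hold 1, 0, 1, 1 and 2 cells above 0.

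A share of cells with a count depends on depth, and the embryonic cells were deeper, so each cell was also thinned at random to 100000 counts, which 38 of the 41 P1 cells and all embryonic cells reached. Thinning lowered most embryonic shares: Cdk2 went from 76.2% to 45.2% of E9.5 cells, Ccnd3 from 71.4% to 50%, Cdk1 from 57.1% to 35.7% and Cdk4 from 95.2% to 85.7%, while Ccnd2 stayed at 88.1%. Among P1 cells the largest move was that of Ccnd3, from 36.6% to 31.6%. After thinning Ccnd2 was found in 88.1%, 82.8% and 73.7% of cells (exact binomial 95% intervals 74.4 to 96%, 64.2 to 94.1% and 56.9 to 86.6%), and the intervals overlapped. For Cdk4 the thinned shares were 85.7%, 89.7% and 50%, and the P1 interval (33.4 to 66.6%) lay below both others. Ccnd3 was found in 50%, 72.4% and 31.6% of thinned cells, and its P1 interval (17.5 to 48.7%) overlapped that of E9.5 (34.2 to 65.8%).

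The other 7 genes were found in few thinned P1 cells. Ccnd1 was found in 54.8%, 41.4% and 7.89%, Cdk2 in 45.2%, 51.7% and 5.26%, and Cdk1 in 35.7%, 51.7% and 2.63%. Ccna2 was found in 50%, 34.5% and 2.63%, and Ccnb1 in 50%, 44.8% and 2.63%, where the P1 share stands for 1 cell each. Ccne2 was found in 33.3%, 24.1% and 0 of 38 cells, and Ccne1 in 19.0%, 20.7% and 0 of 38 cells, where the upper interval limit of 0 cells is 9.25%. For Ccne1 that limit lay above the lower limits of E9.5 (8.60%) and E12.5 (7.99%) and the intervals overlapped. For the S and M members the upper limits at P1 were 13.8% and the lower embryonic limits 17.9% or more. These intervals describe the cells of 1 sample per age and are no test between ages.

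**Figure D2:**
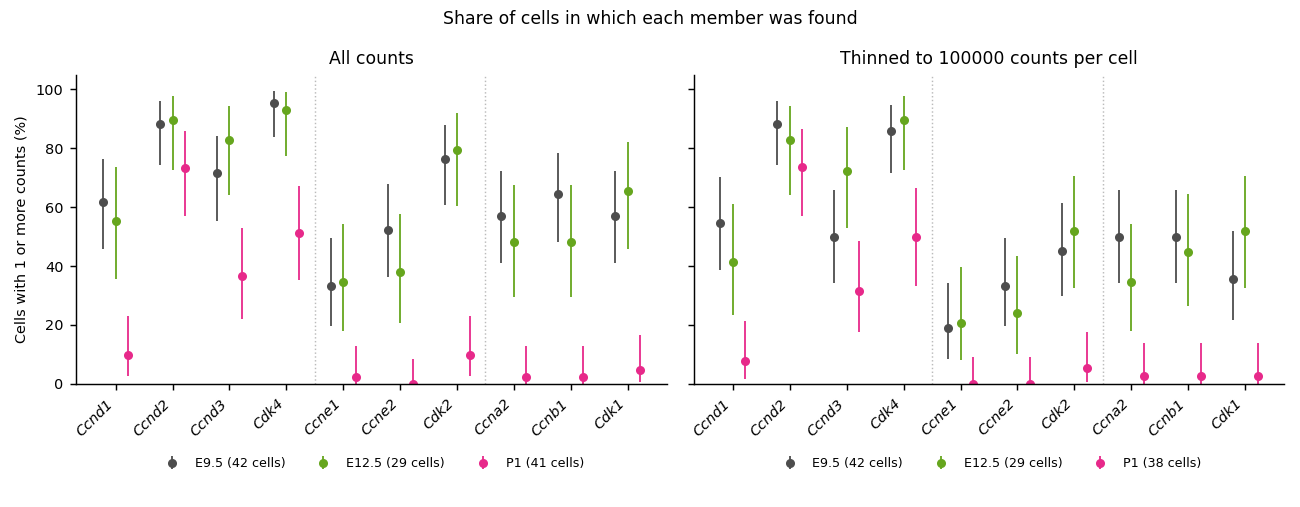
Percent of cells with 1 or more counts of each gene by age, with all counts (left) and after thinning to 100000 counts per cell (right). Bars are exact binomial 95% intervals and dotted lines separate the G1, G1/S and S and M members. P1 stands at 73.7% for Ccnd2, 50% for Cdk4 and 31.6% for Ccnd3 after thinning, and below 10% for the other genes.

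All 10 genes were lower at P1 than at E9.5 by the rule used for calls, which asks for a pooled level at least 2-fold lower and for the same direction against every naming set with 6 or more cells. The same rule was met by 34.1% of the 10337 genes with enough counts, and 18.1% were higher at P1 by the reverse rule. Against E12.5, 9 of 10 were lower at P1, where the share of all genes was 21.4% (24.7% were higher), and Cdk4 was the exception, although it was more than 2-fold lower within set C and with every cell given equal weight. At E12.5 against E9.5, 4 of 10 were lower (Cdk4, Ccne1, Ccne2 and Ccnb1), where the share of all genes was 21.3%, and none was higher, where it was 8.45%. That count went to 2 with every cell given equal weight, on the deposited TPM scale or in set C alone, to 1 after thinning, and to 3 without the cells short of cardiomyocyte markers. The median log2 ratio of the 10 genes was -4.30 (P1 to E9.5), -4.26 (P1 to E12.5) and -0.90 (E12.5 to E9.5), beside medians of -0.58, 0.08 and -0.64 over all genes tested. The cells are of different ages and the 3 comparisons share them, so they are not independent. The 10 of 10 and 9 of 10 at P1 stand above the shares of all genes under the same rule. The share of all genes was not computed in the other settings.

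Gene by gene, in pooled levels, to which N530 gave most E9.5 counts, P1 lay least far below E9.5 on the log2 scale for Cdk4 (-1.73, interval -1.83 to -1.63) and Ccnd3 (-1.94, -2.14 to -1.74), then Ccnd2 (-2.72, -2.80 to -2.64). Cdk2 (-2.92), Ccnd1 (-4.05) and Cdk1 (-4.56) followed. Within set C, the only set of P1, the order was another. Ccnd2 was at -1.71, Ccnd3 at -1.94, Cdk4 at -2.11, Cdk2 at -2.56, Cdk1 at -2.78 and Ccnd1 at -4.91. In pooled levels Ccne1 was at -5.50, on 4 P1 counts, and Ccna2 at -7.34, on 6, and within set C they were at -5.88 and -5.94. The set C value of Ccne1 rests on E9.5 cell 3, which is short of cardiomyocyte markers. It held 178 of the 193 Ccne1 counts of set C at E9.5. For Ccnb1 a single P1 count gave a pooled -11.40, with an interval of -16.71 to -8.93. Ccne2 had no P1 count. With 3 counts over the P1 cells as a bound, it was 80.3-fold lower than at E9.5 and 29.6-fold lower than at E12.5. The exact Poisson limit of 0.541 CPM at P1 is higher than those 3 counts. The bound against E12.5 was -4.67 on the log2 scale for N523 alone and -4.16 without E12.5 cell 23. Single cells set other embryonic levels too. Without the cell with most counts, E9.5 levels went from 116 to 69.8 CPM for Ccnd3 and from 26.5 to 14.7 CPM for Ccne1. Those of Ccna2 went from 142 to 58.8 CPM and of Ccnb1 from 397 to 233 CPM. At E12.5 Ccne1 went from 8.49 to 2.37 CPM and Ccna2 from 32.2 to 18.8 CPM. For Ccnd3 this was E9.5 cell 31, with 42.2% of the E9.5 counts. Without it, P1 lay less far below E9.5 for Ccnd3 than for Cdk4. Without the 4 cells short of cardiomyocyte markers, all 10 genes were still lower at P1 than at E9.5 and 9 than at E12.5. Of the pooled ratios to E9.5, those of Ccnd1 and Ccnd2 moved furthest, to -5.83 and -3.32. The place of Cdk1 rests on P1 cell 23, which held 93 of its 95 P1 counts, and without that cell its P1 level went from 13.9 to 0.301 CPM.

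**Figure D3:**
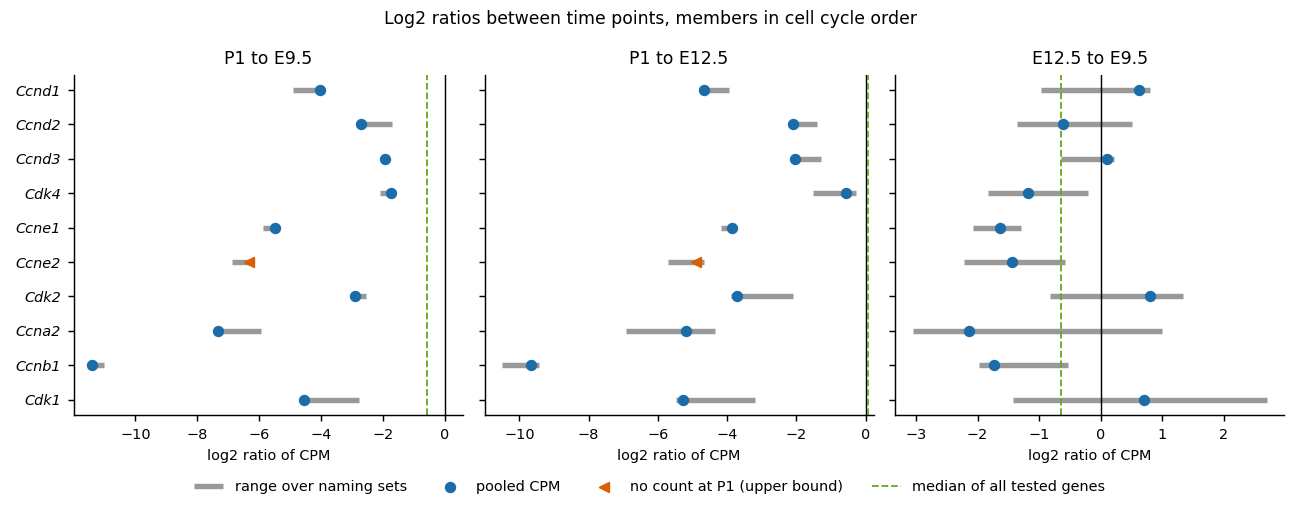
Log2 ratio of pooled CPM between pairs of ages for each gene, in cell cycle order, with the range over naming set combinations (grey), the bound for Ccne2, which has no count at P1 (triangle), and the median of all genes tested (dashed). Every P1 ratio lies left of 0, with Cdk4, Ccnd3 and Ccnd2 nearest to it, and in the right panel 6 grey ranges cross 0.

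Summed, the G1 members kept more of their embryonic level at P1 than the S and M members. Most of the G1 counts were of Ccnd2 and Cdk4, and Ccnd1 did not follow the sum. Without the cells short of cardiomyocyte markers Ccnd1 was at -5.83 against E9.5, on 10 P1 counts, 8 of them in P1 cell 45. In the same cells Cdk1 was at -4.56, with all its 93 P1 counts in P1 cell 23. The order of Ccnd1 and Cdk1 thus rests on single cells. The summed level of Ccnd1, Ccnd2, Ccnd3 and Cdk4 was 1983, 1338 and 365 CPM, and that of Ccna2, Ccnb1 and Cdk1 was 868, 686 and 15 CPM. P1 thus had 18.4% of the E9.5 level of the G1 members and 1.72% of that of the S and M members, as log2 ratios -2.44 and -5.86. The difference of these ratios was 3.42, and 2.90 to 3.43 over the naming sets of E9.5. P1 cell 23 held 93 of the 102 S and M counts at P1, and without the cell with most counts of each family at each age the ratios were -2.63 and -8.91. Against E12.5 the ratios were -1.87 and -5.52, 3.64 apart (3.37 to 3.69 over naming sets). Without the 4 cells short of cardiomyocyte markers the differences were 3.09 and 3.30. The G1/S members had 4.86% of the E9.5 level at P1, a log2 ratio of -4.36, and P1 cell 35 held 21 of their 30 P1 counts. Between E12.5 and E9.5 the G1 and the S and M members were not separated: their log2 ratios of -0.57 and -0.34 differed by -0.23, and over naming sets by -0.78 to 0.07.

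Summed on the TPM scale, on which levels of different genes can be compared, the G1 members summed to 1.88, 1.96 and 27.1 times the S and M members (24.4 times in the 40 P1 cells with cardiomyocyte markers). At E9.5 this was 3.36 in set C and 1.56 in N530, and at P1 Cdk1, nearly all of it in P1 cell 23, made up 7.69 of the 8.42 TPM of the S and M members. By mean TPM the order at E9.5 was Cdk4 (687), Ccnd2 (437), Ccnb1 (357), Cdk1 (218), Ccna2 (106) and Ccnd3 (103), with Ccnd1 (54.2), Ccne1 (45.9), Cdk2 (29.1) and Ccne2 (23.0) below. Places in this order changed between the E9.5 naming sets. Ccna2 and Ccnd3 were at 33.4 and 109 TPM in set C and 142 and 100 TPM in N530, Ccnd2 and Ccnb1 at 219 and 263 TPM in set C and 546 and 404 TPM in N530, and Cdk1 (66.5 TPM) fell below Ccnd1 (82.1 TPM) in set C. Cdk4 stood first in both. At P1 the order was Cdk4 (139), Ccnd2 (64.0), Ccnd3 (22.3), Cdk1 (7.69) and Ccnd1 (3.10), and the rest were below 3 TPM. Without P1 cell 25, Ccnd2 was at 41.97 TPM and Ccnd1 at 1.27 TPM, below Cdk2 at 2.64 TPM. Among the D-type cyclins, Ccnd2 made up 73.5%, 65.9% and 71.6% of the summed TPM at the 3 ages, and Ccnd1 9.12%, 13.7% and 3.46% (66.4% and 2.00% at P1 without P1 cell 25). The share of Ccnd2 differed more within E9.5 (53.4% in set C and 79.5% in N530) than between ages. Cdk6, the other kinase of the D-type cyclins, was at 0.0114, 1.95 and 4.65 TPM, far below Cdk4.

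In single cells, a count of at least 1 G1 member was found in 42 of 42, 29 of 29 and 38 of 41 cells (100%, 100% and 92.7%), and of at least 1 S or M member in 35 of 42, 21 of 29 and 4 of 41 (83.3%, 72.4% and 9.76%). After thinning the S and M shares were 71.4%, 62.1% and 7.89%. No cell of any age held an S or M member without a G1 member. In the embryonic cells this follows from all of them holding a G1 member, and at P1 only the 3 cells without one could have differed. G1 members without an S or M member were common, in 7, 8 and 34 cells (12, 11 and 32 after thinning). The 3 cells with neither were all from P1. A cell held a median of 7, 6 and 2 of the 10 genes, and after thinning 5, 5 and 2. The highest number was 10 in both embryonic ages and 5 at P1.

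**Figure D4:**
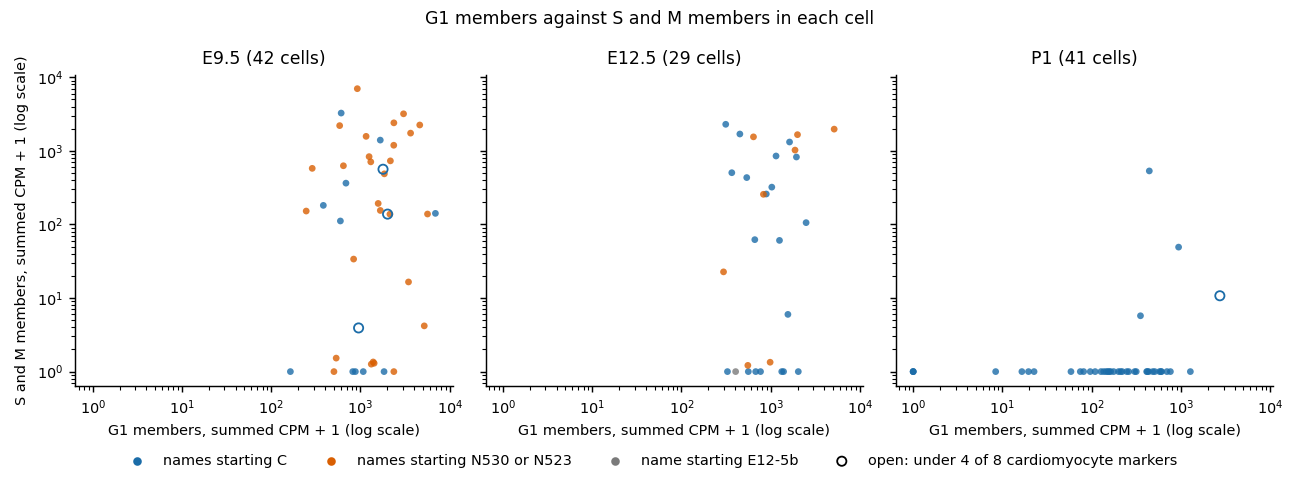
Summed CPM plus 1 of the S and M members against that of the G1 members in each cell (log axes), by age and coloured by naming set, with the 4 cells short of cardiomyocyte markers as open circles. Embryonic cells spread over the full height at G1 levels above 100 CPM, and 37 of the 41 P1 cells lie on the floor of the plot.

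The 4 P1 cells with an S or M member held 1 such gene each. P1 cell 23 had 93 counts of Cdk1 (532 CPM, within the range of embryonic cells) with 44 of Cdk4 and 32 of Ccnd2, and no count of Ccna2 or Ccnb1. P1 cell 9 had 6 counts of Ccna2, along with 31 of the mitotic cyclin Ccnb2, 104 of Ccnd2 and 13 of Ccnd3. P1 cell 33 had 1 count each of Ccnb1 and Ccnb2 beside 70 of Cdk4. These 3 cells had 6 or 7 of the 8 cardiomyocyte markers at 50 CPM or more. P1 cell 25 had 2 counts of Cdk1 with 509 of Ccnd2, 27 of Ccnd1 and 24 of Ccnd3, no Cdk4, and the endothelial markers named above. No P1 cell thus held Cdk1 together with Ccnb1 or Ccna2, whereas 18 of 42 E9.5 cells and 13 of 29 E12.5 cells held both Cdk1 and Ccnb1 (9 of 42 and 11 of 29 after thinning). With Cdk1 found in 2 P1 cells and Ccnb1 and Ccna2 in 1 each, the lack of a joint find adds little to these shares. At the P1 depth it does not show that these genes were off in a given cell. The pair Ccnd2 and Cdk4 was found together in 16 P1 cells, Ccnd2 alone in 14, Cdk4 alone in 5 and neither in 6.

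E12.5 and E9.5 cells differed less, and for several genes the direction hung on which cells were counted. Pooled levels of Ccnd1, Ccnd3, Cdk2 and Cdk1 were higher at E12.5 (log2 ratios 0.61, 0.10, 0.80 and 0.71), but with every cell given equal weight all 4 turned to -0.01, -0.26, -0.21 and -0.05. In set C alone Ccnd1 was at -0.96, Ccnd3 at -0.64 and Cdk2 at -0.46. For Cdk1 the ratio ran from -1.43 (C to N530) to 2.70 (N523 to C). Ccna2 was at -2.14 pooled, -3.05 between N523 and N530 and 0.99 within set C. The genes with the same direction in every combination of naming sets were Cdk4 (-1.17 pooled, -1.83 to -0.20), Ccne1 (-1.64, -2.08 to -1.30), Ccne2 (-1.44, -2.21 to -0.58) and Ccnb1 (-1.74, -1.98 to -0.53). Without the 3 E9.5 cells short of cardiomyocyte markers, Ccne1 no longer kept 1 direction, as the ratio within set C came to 1.64. The part of naming and depth in these differences was not tested.

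Across embryonic cells of 1 age the 3 pairs of S and M members had rho above 0, while pairs of a G1 with an S or M member lay on both sides of 0. Over 29 thinned E12.5 cells Spearman's rho was 0.70 for Ccna2 with Ccnb1, 0.61 for Ccnb1 with Cdk1 and 0.45 for Ccna2 with Cdk1, and within the 20 cells of set C it was 0.84, 0.74 and 0.72. Over 42 E9.5 cells the same pairs were at 0.29, 0.23 and 0.26. The 12 pairs of a G1 with an S or M member had median rho of 0.02 at E9.5 and 0.10 at E12.5, and the 6 pairs of G1 members medians of 0.07 and -0.07. Single pairs reached the S and M values, with 0.28 for Cdk4 and Cdk1 at E9.5 and 0.45 for Ccnd3 and Ccnb1 at E12.5. At E12.5, 11 of the 13 thinned cells with Ccnb1 also held Cdk1, and 9 of the 10 with Ccna2 did. These rho describe sparse counts of cells that differ in depth and naming set, and they carry no test.

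By likeness to Cdk1, taken as the lower of its rho at E9.5 and E12.5 among 4353 genes found in at least 25% of thinned cells of both ages, the nearest genes were Kif22 (0.47 and 0.55), Spc25 (0.45 and 0.46), Tpx2 (0.42 and 0.48), Top2a (0.42 and 0.57) and Cdca8 (0.40 and 0.45). Kif22 is a mitotic kinesin, Spc25 a kinetochore protein, Tpx2 a spindle assembly factor, Top2a the DNA topoisomerase of dividing cells and Cdca8 a subunit of the chromosomal passenger complex. Ccna2 came at rank 49 and Ccnb1 at rank 61 of that order, Ccnd2 at 160, Cdk4 at 333, Ccnd3 at 2974 and Ccnd1 at 3530. The 5 genes were found in at most 2 of 41 P1 cells each. The share of the 4353 genes found as seldom at P1 is not given here, so this is no trait particular to them. For Ccnd2 the nearest genes were Prpf8 (0.40 and 0.39), Maf1 (0.34 and 0.45), Taf1d (0.33 and 0.34), Golga4 (0.33 and 0.36) and Cenpe (0.48 and 0.32). Prpf8 is a core protein of the spliceosome, Maf1 a repressor of RNA polymerase III, Golga4 a Golgi protein and Cenpe a kinetochore motor. Cdk4 stood at rank 3233 for Ccnd2, with rho below 0 at both ages.

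Beyond the 10 genes, the rest of the cyclin and CDK machinery (15 genes: other cyclins, Cks subunits, Cdc25 phosphatases, the inhibitory kinases and the CDK-activating kinase) had 13 genes with enough counts, of which 8 were lower and 1 higher at P1 than at E9.5 (34.1% and 18.1% of all genes), and 6 lower and 2 higher than at E12.5 (21.4% and 24.7% of all genes). Its median log2 ratios were -2.36 and -2.92, beside -0.58 and 0.08 over all genes tested. The lowest were Cdc25c, a phosphatase that activates Cdk1, Ccnf, which encodes cyclin F, and Pkmyt1, a kinase that inhibits Cdk1, all with 0 counts at P1 and 51.8, 35.5 and 32 CPM at E9.5. Pkmyt1 rested on 5 E9.5 cells, 1 of which held 85% of its counts, and Ccnf on 12, 1 of which held 60.7%. In set C of E9.5 the 3 genes were at 32.9, 3.58 and 3.76 CPM. The highest were Cdk6, Wee1 and Ccnh. Cdk6 had 1, 26 and 67 counts, and of the 67 a single P1 cell held 89.6%. Wee1, a kinase that inhibits Cdk1, was at 50.2, 27.2 and 70.7 CPM and was found in 18, 13 and 15 cells. Single cells held 50.3% of its E9.5 counts and 53.9% of its E12.5 counts. Ccnh, a subunit of the CDK-activating kinase, was at 85.5, 106 and 96.5 CPM. Neither Wee1 nor Ccnh passed the rule against E9.5. Wee1 was called higher against E12.5, with a log2 ratio of 0.63 within set C.

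Cyclins and CDKs that act in transcription rather than in the cycle served as a contrast within the same gene families. Of 12 genes, 11 had enough counts, and 2 were lower and none higher at P1 than at E9.5 (34.1% and 18.1% of all genes), while 4 were lower and 4 higher than at E12.5 (21.4% and 24.7% of all genes). Their median log2 ratios were -0.24 and 0.13, beside the same medians of all genes. The lowest against E9.5 were Ccnk (-2.22), Cdk8 (-2.05) and Ccnl1 (-1.29), of which Cdk8 did not pass the rule. The highest were Cdk13 (0.22), Ccnt1 (0.12) and Cdk9 (0.03), none of which passed. Within set C, Ccnk, Cdk8 and Ccnl1 were at -1.60, 1.28 and -2.27, and Cdk13, Ccnt1 and Cdk9 at 1.58, -0.71 and 1.21. Single P1 cells held 22 of the 33 P1 counts of Ccnk, 66 of the 89 of Cdk8 and 61 of the 96 of Cdk9. Cdk13 was found in 21 of 41 P1 cells at 62.8 CPM and in 25 of 42 E9.5 cells at 53.7 CPM.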

How the data were processed

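Single αMHC-GFP+ cells were captured on the Fluidigm C1 platform, amplified with SMART-Seq V4 chemistry and read as single ends on a NextSeq. The authors aligned the reads with OLego, obtained counts per gene symbol with featureCounts and deposited them unnormalised. The TPM (transcripts per 1000000) were calculated by the authors from these counts, and the deposited table is linear. The submitters' processing notes name GRCm38 and mm10. The methods of the study say that cells with low-quality data, by a threshold on mapped reads, were left out of its analyses, and that some of these also left out cells under 2000 genes. The numbers of cells deposited per age are those in its heat map of single cells.

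From the counts, cells with 2000 or more genes were kept (112 of 123, totals 69522 to 7711355). CPM were pooled per time point, with exact Poisson, binomial (Clopper-Pearson) and conditional ratio intervals at 95%, and a count of 0 was set to 3 counts, with no ratio given where the other value lay at or below that bound. Thinning drew 100000 counts per cell without replacement (seed 1). Genes tested had a count in 3 or more cells and 5 CPM or more at 1 age. TMM factors came from edgeR 4.0.16, used for scaling only, and all else from Python 3.11.15, numpy 2.4.6 and scipy 1.17.1.

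The 10 genes and all gene lists were chosen with earlier results of these data known. Named are all 10 genes, the 3 highest and 3 lowest P1 to E9.5 ratios of each further list, and the 5 genes most like Cdk1 and Ccnd2. Other marker lists (fibroblast, epicardial, erythroid, macrophage) were read in the same cells. At P1 their summed levels were 0 in all cells for fibroblast and erythroid markers, above 0 in 6 cells for epicardial and in 1 cell for macrophage markers; at E9.5 they reached 4007, 2695, 2.12 and 392 CPM and at E12.5 513, 510, 0.216 and 229 CPM in the highest cell. Their part in the results was not tested, apart from the values given without the 4 cells short of cardiomyocyte markers.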

Additional observations from a re-analysis of the deposited data

Results flagged for a closer look

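Between E12.5 and E9.5, 4 genes had opposite directions in the naming sets. The log2 ratio of Ccnd1 was -0.96 within set C and 0.81 between N523 and N530, that of Ccnd3 was -0.64 and 0.22, that of Cdk2 was -0.46 and 0.96, and that of Ccna2 was 0.99 and -3.05. The difference between the sets was not tested. The 0.96 of Cdk2 rests on E12.5 cell 24, which held 86.9% of the E12.5 counts, and the -3.05 of Ccna2 goes with E9.5 cell 19, which held 59.9% of the E9.5 counts.

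The 11 P1 cells with fewer than 2000 genes, which the main comparisons left out, also held counts of some of these genes. Ccnd2 had 76 counts in 6 of them, 60 in a single cell, which is 106 CPM over the 11 cells. Cdk2 had 26 counts in 3 cells, as many as the 41 kept P1 cells held together, which is 36.4 CPM against 3.81 CPM. Ccnd3 had 4 counts in 1 cell. No count of Ccna2, Ccnb1 or Cdk1 was found in the 714929 counts of these cells.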

How the results depend on the processing

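With 1 sample per time point no paired analysis was possible because no result comes from a test. Of 150 alternatives for the counts of genes, family ratios and family shares, 124 stayed within the spread and 26 moved, and none turned the direction of a called value. Of 208 alternatives for log2 ratios of single genes 65 moved, and of 150 for their shares of cells 33 moved. The number of genes lower at E12.5 than at E9.5 went from 4 to 2 with means of cell CPM, deposited TPM, the cells whose titles lack the unexplained ending "no" or set C only, to 1 after thinning and to 0 at 4-fold. The G1 ratio of P1 to E9.5 was -2.77 with cardiomyocyte markers required and -2.02 in set C. That of P1 to E12.5 was -2.20 and -1.53 in the same settings, -1.50 with 3000 genes or more and -2.22 without the "no" titles. For E12.5 to E9.5 it was -1.07 with 3000 genes or more, -0.14 with TMM factors and -0.99 without the cell with most counts. The S and M ratio of P1 to E9.5 was -8.06 with 3000 genes or more, -9.61 without the "no" titles, -4.93 in set C and -8.91 without the cell with most counts, and against E12.5 it was -7.40, -9.36, -4.90 and -8.67. P1 cell 23, which holds 93 of the 102 S and M counts at P1, is in the main values and those of set C and is left out in the other 3 settings. In set C the share of E9.5 cells with an S or M member was 64.3%. With 10 counts required, the P1 share was 75.6% for G1 members and 2.44% for S and M members. TMM factors shift every log2 ratio by 0.17 (P1 to E9.5), -0.26 (P1 to E12.5) and 0.43 (E12.5 to E9.5). Over single genes, 17 of 70 ratios of E12.5 to E9.5 changed sign and 0 of 69 in each P1 comparison. The cause of these moves was not tested.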
